A study of Homo sapiens with 8 samples.

Results

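RPL9, RPL34, RPS3A, RPL17 and RPS24 encode proteins of the cytosolic ribosome, and TPT1 encodes the translationally controlled tumour protein. These genes were described in 2 lists of regions from RNA recovered with an antibody against eIF4G2, a translation initiation factor. The 6 genes were taken by name, and a region was given to a gene when it lay inside the gene, ran across one of its ends or enclosed it. They are 6 of 861 genes with a region in either list, and they carried 26 regions, 13 in each list. The cells were IHCF, human cardiac fibroblasts made immortal in culture, and carried either a lentiviral vector for eIF4G2 overexpression or a scramble control vector. RNA was recovered with an antibody against eIF4G2 in both conditions and sequenced beside total RNA, with 2 biological replicates of each of the 4 groups, 8 libraries in all. The authors deposited 1 list for each condition, the scramble list (control vector) and the eIF4G2 list (overexpression vector) below, and only the names of the tables tie a list to its condition. Those names also contain MOV10, an RNA-binding protein that no sample label mentions.

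A list gives the position and width of each region on GRCh38 and the Ensembl transcripts it touches. It holds no read count, score or p-value, no strand for a region and no value per replicate, so depth is unknown and no difference between the lists could be tested. The scramble list held 1224 regions and the eIF4G2 list 1986, and neither reached most chromosomes. Nearly all scramble regions (1185) came from chromosome 4, with the rest from 10, 13, 21 and the mitochondrial genome. The eIF4G2 regions came mainly from chromosomes 18 (1339) and 4 (491), with the rest from 6, 10, 13, 16, X and Y. The absence of a gene outside these chromosomes is thus shared with every gene of its chromosome. EIF4G2, on chromosome 11, had no region in either list, so the overexpression could not be checked. None of 21 marker genes of cardiac fibroblasts, cardiomyocytes, endothelium and leukocytes had a region, and 4 of the 21 lie on the chromosomes that carry the 6 genes (4, 10, 13 and 18), so the lists do not bear on the cell type.

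Ribosomal protein mRNAs are among the most abundant messages of a growing cell. Together with the mRNA of TPT1 they belong to the terminal oligopyrimidine (TOP) class, whose members open with an uninterrupted run of C and U and are translated in response to nutrient and growth signals through mTOR. eIF4G2 (also DAP5) resembles eIF4G1 without the part that holds the cap-binding protein, and serves translation that does not rely on the usual cap-bound complex. Several ribosomal protein genes also carry small nucleolar RNAs (snoRNAs) in their introns, which are released from the spliced intron and guide modification of ribosomal RNA.

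The bases around the RefSeq transcription start of each gene are shown because the TOP class is defined there and because some regions, described further on, ran over them. Each line gives 50 bases before the start and the first 20 bases of the transcript, read 5′ to 3′ on the strand of the gene from the GRCh38.p14 table of RefSeq. Capitals mark the longest run of C and T within 10 bases of the start. The run held the RefSeq start in RPL34, RPS3A, RPS24 and TPT1, began at base 6 of the transcript in RPL9, and in RPL17 began 20 bases before the start and ended before it.
RPL9, chr4:39458903-39458972, minus strand: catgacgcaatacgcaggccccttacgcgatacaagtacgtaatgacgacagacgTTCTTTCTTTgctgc
RPL34, chr4:108620526-108620595, plus strand: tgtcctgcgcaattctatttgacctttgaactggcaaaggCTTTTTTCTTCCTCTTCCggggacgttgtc
RPL17, chr18:49492446-49492515, minus strand: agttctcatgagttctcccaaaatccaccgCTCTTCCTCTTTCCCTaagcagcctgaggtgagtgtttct
RPS3A, chr4:151099578-151099647, plus strand: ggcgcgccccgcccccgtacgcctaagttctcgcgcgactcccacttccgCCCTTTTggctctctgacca
RPS24, chr10:78033813-78033882, plus strand: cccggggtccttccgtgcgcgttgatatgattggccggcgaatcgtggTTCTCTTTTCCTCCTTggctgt
TPT1, chr13:45341164-45341233, minus strand: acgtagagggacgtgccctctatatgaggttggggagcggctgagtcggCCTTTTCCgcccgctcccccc

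The runs were 10, 18, 16, 7, 16 and 8 bases long in the order shown. A run of at least 7 such bases, a length set to the shortest of the 6 after they were seen, lay within 10 bases of the start in 20.9% of 27305 promoters, 1 per gene, on the strand of the gene. It lay there in 52 of the 63 cytosolic ribosomal protein genes found in that table (82.5%). Among protein-coding genes with a region the share was 23.9% in the scramble list (78 of 327) and 18.9% in the eIF4G2 list (79 of 417), close to the 20.0% of all protein-coding genes in the table. Such a run was thus about as frequent among the genes of either list as among protein-coding genes at large.

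All 6 genes had a region in the eIF4G2 list and 4 of 6 in the scramble list. RPL9, RPL34, RPS3A and TPT1 were in both, and RPL17 and RPS24 were in the eIF4G2 list alone. On chromosome 4, which carries RPL9, RPL34 and RPS3A, 43.1% of protein-coding genes had a region in the scramble list, 27.3% in the eIF4G2 list and 24.0% in both. On chromosome 18, which carries RPL17, the shares were 0% and 60.0%, and on chromosome 10, which carries RPS24, 4.09% and 9.13%. TPT1 was the only protein-coding gene of chromosome 13 with a region in either list (0.296% in each). The scramble list had no region anywhere on chromosome 18, so the absence of RPL17 from it is shared with every other gene there. The 6 genes were proposed with their presence in the lists known, and nothing is read from these counts.

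**Figure D1:**
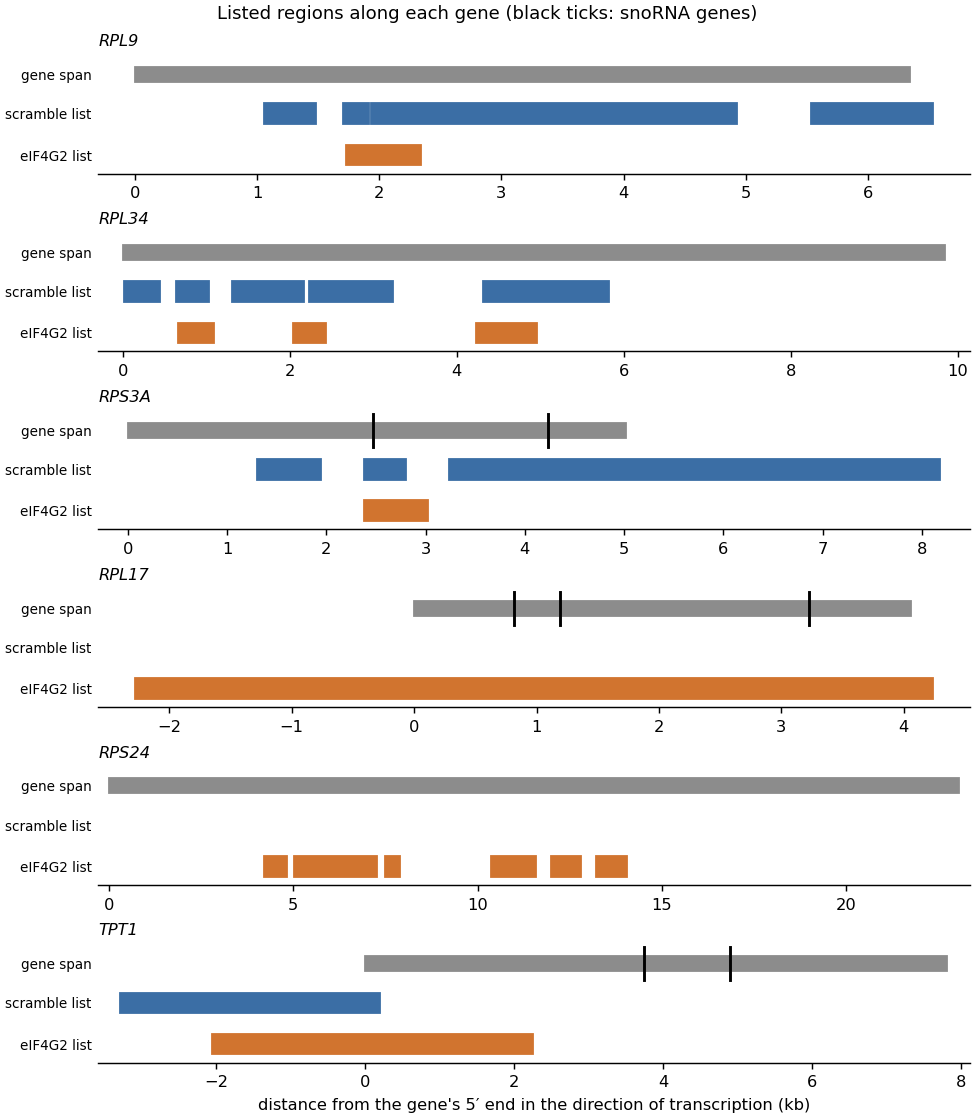
Regions of the scramble list (blue) and the eIF4G2 list (orange) along each gene, with distance in kb from the 5′ end of the gene in the direction of transcription, the span of the annotated transcripts in grey and snoRNA genes as black ticks. RPL9, RPL34 and RPS3A had more regions in the scramble list, the single region of RPL17 enclosed the gene, and those of TPT1 lay across its 5′ end.

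RPL9, a protein of the large subunit, spans 6345 bp on chromosome 4. The scramble list placed 4 regions on it, at chr4:39452401-39453400 (1000 bp), chr4:39454006-39457000 (2995 bp), chr4:39457016-39457230 (215 bp) and chr4:39457446-39457875 (430 bp). Together they covered 4454 bp of the gene, 70.2% of its span, from 1056 bp after the 5′ end to beyond the 3′ end. The eIF4G2 list placed 1 region of 615 bp, at chr4:39456586-39457200, on 9.69% of the gene. It shared 415 bp with the 2995 bp scramble region and 185 bp with the 215 bp one, 97.6% of its own width and 12.9% of the scramble width. The eIF4G2 region thus lay almost wholly within what the scramble list covered, in the 5′ part of the gene. Overlap between the lists was not counted for other genes, so the overlaps given here and below have no background and mark no trait of these genes. Of the 14 transcripts of RPL9, 9 ran into the 2995 bp scramble region and ended there, 1 more lay whole within it, and none ended within the eIF4G2 region. No other gene lay under any RPL9 region, although LIAS, the lipoic acid synthetase gene, lies 125 bp beyond its 5′ end and had 2 scramble regions and 1 eIF4G2 region of its own. KLB, 1054 bp beyond the 3′ end, had none.

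RPL34, also of the large subunit, spans 9844 bp. The scramble list held 5 regions, of 430, 400, 860, 1005 and 1505 bp, that covered 42.7% of it. The first of them, chr4:108620581-108621010, began 12 bp after the 5′ end, inside the run shown above, and the last, chr4:108624881-108626385, held the 3′ ends of 5 of 7 transcripts. The eIF4G2 list held 3 regions, of 430, 400 and 725 bp, on 15.8% of the gene, and the 725 bp region, chr4:108624801-108625525, held the ends of 4 of 7 transcripts. All 3 overlapped a scramble region, and 4 of the 5 scramble regions overlapped one of the eIF4G2 list. The lists shared 1350 bp, 86.8% of the eIF4G2 width and 32.1% of the scramble width. Of the scramble regions only the one at the start of the gene had no counterpart. No region of RPL34 lay over another gene, and the divergent transcript RPL34-DT, 112 bp upstream, had no region. The scramble list had 3 further regions, of 400, 430 and 215 bp, 4389 to 5649 bp past the 3′ end of RPL34, which lay over no annotated gene, and the eIF4G2 list had none there.

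RPS3A, a protein of the small subunit, spans 5019 bp and hosts SNORD73B and SNORD73A, box C/D snoRNAs of the class that guides ribose methylation. The scramble list held 3 regions. One of 645 bp, at chr4:151100926-151101570, lay over RPS3A alone, and one of 430 bp, at chr4:151102001-151102430, enclosed SNORD73B as well. The widest, at chr4:151102861-151107805 (4945 bp), enclosed SNORD73A, held the 3′ ends of 13 of 14 RPS3A transcripts and ran 3163 bp past the gene. The eIF4G2 list held 1 region, at chr4:151102001-151102645 (645 bp). It started at the same base as the 430 bp scramble region, contained all of it and enclosed SNORD73B too, so the one place of RPS3A that both lists name is the part around SNORD73B. With bases beyond the gene left out, 2857 bp of RPS3A were covered in the scramble list (56.9%) and 645 bp in the eIF4G2 list (12.9%).

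Among all regions of the scramble list, the 4945 bp region of RPS3A ranked 3 of 1224 by width. The part past the 3′ end of RPS3A holds 0 genes of the RefSeq table. In the deposited annotation it lies inside a single transcript of SH3D19, an adaptor protein gene on the opposite strand, while the RefSeq record of SH3D19 ends 15639 bp away from RPS3A. Without strand the 3163 bp cannot be given to either gene.

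RPL17, a large subunit protein that lines the exit tunnel, had 1 region, at chr18:49488271-49494790 in the eIF4G2 list. It was the widest of all 1986 regions (6520 bp). It enclosed the 4056 bp gene whole, with all 24 of its transcripts, and ran 2282 bp past its 5′ end and 182 bp past its 3′ end. SNORD58A, SNORD58B and SNORD58C, the box C/D snoRNAs of its introns, lay inside it too, as did 4209 bp of the readthrough gene RPL17-C18orf32 on the same strand and 3608 bp of an unnamed gene, ENSG00000265496, on the opposite strand. All 300 bases of the RefSeq promoter window, which reaches from 250 bases before the start to 50 after it, lay under the region. C18orf32, the downstream partner of the readthrough gene, had 7 other regions in the eIF4G2 list, of which 5 lay over it alone.

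RPS24, a small subunit protein whose gene is mutated in some patients with Diamond-Blackfan anaemia, has the longest span of the 6 genes, 23054 bp. The eIF4G2 list placed 6 regions on it. They began 4206 bp after the 5′ end, at chr10:78037966-78038580 (615 bp), and left both the start and the last 9008 bp of the gene free. The widest, chr10:78038786-78041040 (2255 bp), held the 3′ ends of 10 of 14 transcripts. The following 4, of 410, 1230, 820 and 820 bp, lay past the end of most transcripts and inside 3 long ones. No other gene lay under these regions. Together they covered 6150 bp, 26.7% of the span. POLR3A, a subunit of RNA polymerase III and the nearest upstream gene, 4245 bp away, had 1 region in the eIF4G2 list.

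TPT1, an abundant growth-related protein, had 1 region in each list on chromosome 13, both across its 5′ end. The scramble region, chr13:45341081-45344565 (3485 bp), covered only 204 bp of TPT1, 5.85% of its own width. The remainder lay upstream, and 3221 bp (92.4%) fell within TPT1-AS1, a noncoding gene read away from TPT1 on the opposite strand. The eIF4G2 region, chr13:45339031-45343335 (4305 bp), covered 2254 bp of TPT1 (52.4% of the region) and 1991 bp of TPT1-AS1 (46.2%). An unnamed gene on the opposite strand, ENSG00000273149, had 103 bp under the scramble region and lay whole, with 1145 bp, under the eIF4G2 region. A second eIF4G2 region of 1025 bp, chr13:45343541-45344565, lay over TPT1-AS1 alone and ended at the same base as the scramble region. Over TPT1-AS1 the lists were therefore alike in length (3221 and 3016 bp), and they differed within TPT1, where 2.61% of its 7814 bp was covered in the scramble list and 28.8% in the eIF4G2 list. The region held the starts of 9 of 14 TPT1 transcripts in the scramble list and of 14 of 14 in the eIF4G2 list, where 1 of these 14 was enclosed whole. Without strand, the scramble region cannot be told apart from a region of TPT1-AS1, nor the eIF4G2 region from one of TPT1-AS1 or ENSG00000273149.

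The snoRNA hosts did not behave alike. Of 7 RefSeq snoRNA genes within the 6 genes, 2 lay under a scramble region and 4 under an eIF4G2 region. SNORD73B was under a region in both lists, SNORD73A in the scramble list only, and the 3 SNORD58 genes in the eIF4G2 list only. SNORA31 and SNORA31B, H/ACA snoRNAs 3675 and 4837 bp after the 5′ end of TPT1, were under none. On chromosome 4, 6.82% of 44 snoRNA genes lay under a scramble region and 2.27% under an eIF4G2 region. On chromosome 18 the shares were 0% and 12.5% of 24, and on chromosome 13 0% of 28 in both, so the 3 SNORD58 genes were the only snoRNA genes of chromosome 18 under a region. The snoRNAs are 65 to 134 nt long and each region was at least 430 bp wide, so a region over a host intron cannot be split into host and snoRNA.

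**Figure D2:**
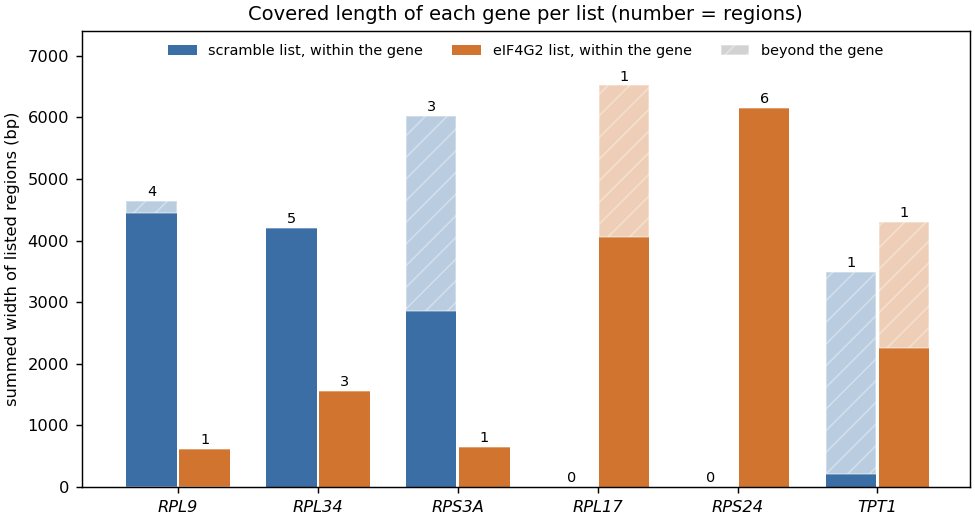
Summed width in bp of the regions of each gene in the scramble list (blue) and the eIF4G2 list (orange), with the part beyond the ends of the gene hatched and the number of regions above each bar. RPL9, RPL34 and RPS3A were longer in the scramble list, TPT1 was longer in the eIF4G2 list, and most of the scramble bar of TPT1 lies beyond the gene.

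Covered length, the summed width of the regions of a gene, is the only size the lists give. For RPL9 it was 4640 bp in the scramble list and 615 bp in the eIF4G2 list, a ratio of 0.133. For RPL34 the ratio was 0.370 (4200 and 1555 bp) and for RPS3A 0.107 (6020 and 645 bp). Of 225 genes of chromosome 4 in both lists, 74.2% had less covered length in the eIF4G2 list and the median ratio was 0.598, and all covered length of that chromosome had a ratio of 0.418. The 3 ribosomal protein genes thus lay on the side of most genes of chromosome 4. RPS3A and RPL9 were near the end of the order, with 2 and 3 of 225 genes at or below their ratio, and RPL34 was further in, with 63. When only bases within genes were counted, the ratios were 0.138 for RPL9, 0.370 for RPL34 and 0.226 for RPS3A, against a median of 0.659, and 19 of 225 genes were then at or below RPS3A. TPT1 went the other way, with a ratio of 1.24 by full width and 11.0 within the gene. Over the 244 genes of all chromosomes in both lists, the medians were 0.65 and 0.694, and 192 and 243 genes were at or below TPT1. The ratio of 11.0 rests on 204 bp in the scramble list, less than 1 bin of 205 bp, against 2254 bp, so its size is not well determined. No replicate value stands behind these ratios, and the spread between replicates is unknown. The level of each mRNA in total RNA was not analysed here, so a difference in binding and a difference in abundance cannot be told apart.

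**Figure D3:**
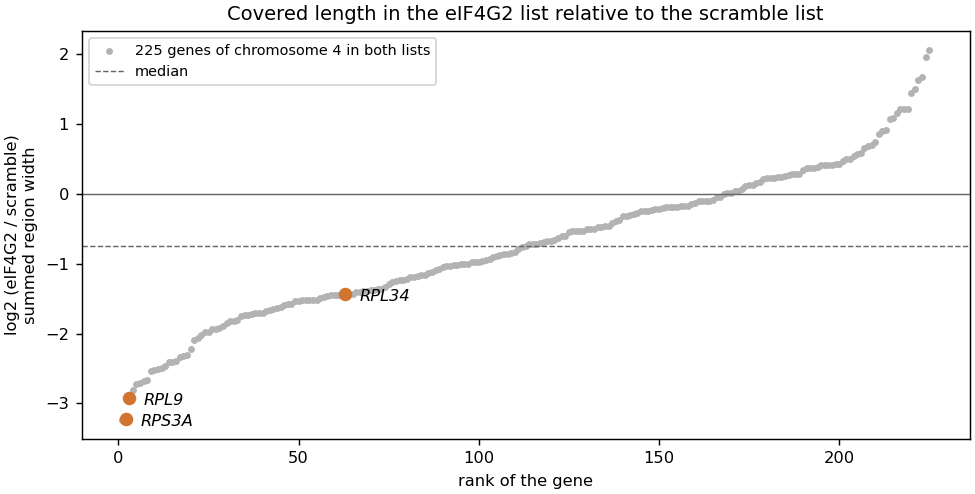
Covered length in the eIF4G2 list relative to the scramble list, as log2 of the ratio, for the 225 genes of chromosome 4 with regions in both lists, in rising order (grey points; the dashed line is the median). RPS3A and RPL9 (orange) stand at ranks 2 and 3 and RPL34 at rank 63.

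The share of a gene that was covered fell with gene length in both lists, and these are short genes. They span 4.06 to 23.1 kb, while the genes of the lists have a median span of 48.7 kb in the scramble list and 41.1 kb in the eIF4G2 list. The covered share of a gene had a median of 3.99% in the scramble list and 4.70% in the eIF4G2 list. RPL9 (70.2%), RPS3A (56.9%) and RPL34 (42.7%) ranked 29, 38 and 47 of 471 in the scramble list, and TPT1 (2.61%) ranked 296. In the eIF4G2 list RPL17 was covered whole and RPL9, the lowest of the 6, ranked 221 of 634. At least 50% of the span was covered for 2 of 4 of these genes in the scramble list, against 9.13% of all listed genes, and for 1 of 6 in the eIF4G2 list, against 8.04%. Among listed genes no longer than RPS24 the share was 29.7% of 145 and 23.8% of 214, and the median covered share was 24.1% and 23.3%. That set has no lower limit of length and includes snoRNA and microRNA genes that a region encloses whole, so it is not matched for length. Against its median, RPL9, RPS3A and RPL34 were above in the scramble list and below in the eIF4G2 list. TPT1 (2.61%) was below it in the scramble list. In the eIF4G2 list RPL17, TPT1 (28.8%) and RPS24 (26.7%) were above it.

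**Figure D4:**
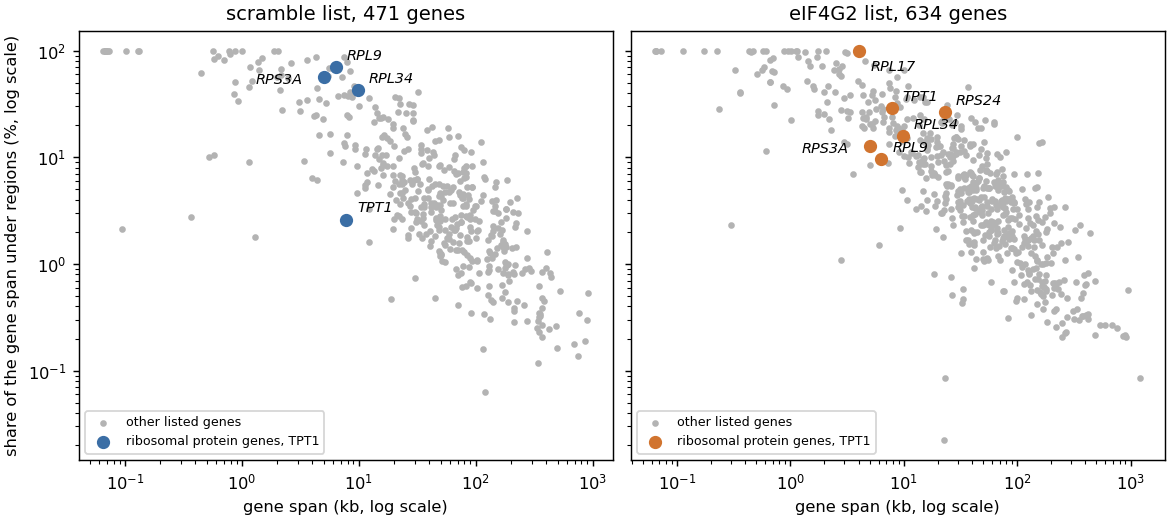
Share of the gene span under regions (%) against gene span (kb), both on log axes, for every gene of the scramble list (left, 471 genes) and the eIF4G2 list (right, 634 genes), with the 6 genes in colour. Short genes had larger covered shares in both lists, and TPT1 lay low for its length in the scramble list.

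Regions at 3′ ends were frequent in both lists, and the counts here were near that background. In the scramble list 3 of 4 of these genes had a region over the 3′ end of at least 1 transcript, against 67.1% of all listed genes, and in the eIF4G2 list 4 of 6, against 63.9%. A region over the start of a transcript was found for 3 of 4 in the scramble list, against 28.9%, and for 4 of 6 in the eIF4G2 list, against 30.8%. These starts include short internal transcripts, and in the eIF4G2 list RPL9 and RPS24 each counted through 1 of 14 transcripts. A gene with more transcripts has more chances to be counted, at starts and at 3′ ends. The 6 genes have 7 to 24 listed transcripts, and the background was not matched for that number. Counted on the RefSeq promoter window of 300 bases, RPL34 had 45 bases under a scramble region, RPL17 had all 300 under its eIF4G2 region and TPT1 all 300 in both lists, while RPL9, RPS3A and RPS24 had 0. A protein-coding promoter of chromosome 4 touched a region in 5.94% of cases in the scramble list and 1.83% in the eIF4G2 list. The shares were 0% and 11.1% on chromosome 18, 0.154% and 0.308% on chromosome 10, and 0.334% in both lists on chromosome 13, where TPT1 was the 1 gene counted.

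Every region edge on chromosomes 4, 10, 13 and 18 fell on a grid of fixed bins, of 200 and 215 bp on chromosome 4, 205 and 215 bp on chromosome 18, and 205 bp on chromosomes 10 and 13. A position or width is thus known to about 1 bin. Both grids met in single regions, which began on one and ended on the other, in 2 of the 13 scramble regions of these genes and in 3 of the 13 eIF4G2 regions, including the widest RPL9 scramble region and that of RPL17. Over all regions of chromosome 4 this was so for 26.7% in the scramble list and 33.0% in the eIF4G2 list, and for 26.7% on chromosome 18. The regions of RPS24 and TPT1 lie on chromosomes with a single grid and could not meet this. The counts out of 13 are thus not comparable with these shares. What the grids stand for is not given in the sources used here.

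Of 79 cytosolic ribosomal protein genes, 6 lie on chromosomes 4, 10, 13 and 18, and the one without a region was RPL21, on chromosome 13. These chromosomes were taken because they carry the genes described here, so a high share on them follows from that choice. On all chromosomes with a region in the scramble list lie 5 of the 79, of which 3 had a region. For the eIF4G2 list the number is 17, of which 5 had a region. Of all protein-coding genes on those chromosomes, 17.4% had a region in the scramble list and 9.44% in the eIF4G2 list. The 3 genes of the scramble list lie on chromosome 4, where the share was 43.1%. The genes were proposed with their regions known, so nothing is read from these counts. By subunit, 2 of 47 genes of the large subunit had a region in the scramble list and 3 of 47 in the eIF4G2 list, and 1 and 2 of 32 of the small subunit. Only 3 of the 47 could be reached on the chromosomes of the scramble list and 9 on those of the eIF4G2 list. For the 32 these numbers were 2 and 8. Ribosomal protein genes have many processed copies, and how reads that align to several places were treated is not given. RefSeq names 207 pseudogene copies of the 6 genes, 34 of them on these 4 chromosomes, and none lay under a region of either list. Of 1796 pseudogene copies of other ribosomal protein genes, 4 lay under scramble regions (RPL6P10, RPL7AP30, RPL7AP28 and RPL14P3, all on chromosome 4) and 2 under eIF4G2 regions (RPL13AP5 on chromosome 10 and RPL6P27 on chromosome 18). The parent genes of these 6 copies had no region, and all lie on chromosomes that neither list reached. No share over all pseudogenes was counted.

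The other lists of translation genes were read against all protein-coding genes on the chromosomes where a list had at least 1 region, of which 17.4% had a region in the scramble list and 9.44% in the eIF4G2 list. On chromosome 4 alone the shares were 43.1% and 27.3%. Of 14 mitochondrial ribosomal protein genes, MRPL1 had 4 regions in the scramble list and 2 in the eIF4G2 list (2790 and 1650 bp), and MRPS18C 10 and 5 (4115 and 3620 bp). All MRPL1 regions lay over that gene alone, but for MRPS18C only 1 of the 10 and 0 of the 5 did. MRPL1 and MRPS18C lie on chromosome 4, and MRPL43 and MRPS16, on chromosome 10, had none. Of 11 snoRNA host genes without a long reading frame, SNHG8, on chromosome 4, had 3 regions in each list (2605 and 1430 bp). Of its scramble regions 0 lay over SNHG8 alone. Another gene of chromosome 4 also had 3 eIF4G2 regions that sum to 1430 bp, 0 of them over it alone. The same limit may thus hold in the eIF4G2 list. Of 17 further TOP mRNAs, TPT1 had a region and VIM, the intermediate filament gene vimentin on chromosome 10, had none. Of 13 genes of ribosome assembly and TOP regulation, the nucleolar phosphoprotein gene NOLC1 had 1 scramble region and 2 eIF4G2 regions (1025 and 1845 bp), and LARP4B, an RNA-binding protein gene, and DKC1, the pseudouridine synthase of H/ACA snoRNPs, had 1 eIF4G2 region each (4100 and 2620 bp). The DKC1 region also lay over another gene, while those of NOLC1 and LARP4B did not. None of 10 elongation factor genes had a region, and 0 of the 10 lie on chromosomes 4, 10, 13 or 18. On chromosomes with a region lie 0 of the 10 for the scramble list and 3 for the eIF4G2 list.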

How the data were processed

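Per the submitters' processing notes, reads were handled with bcl2fastq 2.19.0, Trimmomatic 0.36 and HISAT2 2.1.0 on GRCh38. How regions were called, with what cutoff or background, and whether replicates were pooled is not given in the sources used here. Deposited values are positions, widths and distances in bp, with 1 row per region and transcript and no normalization, per the file headers. One entry was kept per region and gene. The span of a gene is that of its outermost transcripts in the tables. Covered length is the summed full width of its regions, and an overlap is at least 1 bp. Older gene names were updated through RefSeq synonyms. The edgeR test planned for counts could not be run, as the tables hold none. The genes, lists and comparisons were chosen with earlier results of these data known. Named genes are the 6 genes, genes under or beside their regions and list members with a region; others (RPL21, MRPL43, MRPS16, VIM and the pseudogenes) were named after their values were seen. Overlaps were tested on simulated data: 200 of 200 planted ones were recovered exactly. Python 3.11.15, pandas 2.3.3, numpy 2.4.6 and matplotlib 3.10.9 were used.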

Additional observations from a re-analysis of the deposited data

How the results depend on the processing

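No paired analysis was possible because the lists hold no value per replicate, and for the same reason leaving out a replicate was not run. The median covered length was 4420 bp over the 4 genes of the scramble list and 2930 bp over the 6 genes of the eIF4G2 list. It was 3528.5 and 1904.5 bp with bases within genes only, and 3189.5 and 1854 bp within RefSeq spans. With the widest region alone it was 3240 and 1490 bp. With regions over 1 gene only it was 2422.5 and 307.5 bp, with listed genes left without such a region counted as 0 bp. RPL17 (6520 bp) and RPS24 (6150 bp) enter the eIF4G2 medians alone, so the medians of the lists are not a like comparison. With regions of at least 1000 bp the eIF4G2 list named 3 of the 6 genes in place of 6. With regions over 1 gene only it named 3 cytosolic ribosomal protein genes in place of 5, without RPS3A and RPL17, and TPT1 was left with 0 bp in both lists. RPL9, RPL34 and RPS3A had less covered length in the eIF4G2 list under all 4 settings, and TPT1 more under the other 3. Regions of at least 50% mutual overlap were found for 3 of the 4 shared genes, with no count over other genes to set beside it. Of 64 values under alternative settings, 48 were lengths, of which 21 stayed within 1 bin (215 bp) of the reported value, and 16 were counts, of which 10 stayed within 1.5 times of it. The other 33 moved. A length or count of a single list has no direction, so a reversal could not appear among these values.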
